A study of Mus musculus with 51 samples.

Results

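The genes described here carry the symbols of cytosolic ribosomal proteins, and 2 of them, Rps3a3 and Rps12l1, are annotated as processed pseudogenes and are counted with the small subunit. They were taken by symbol, as the rows of each deposited table named Rpl or Rps with a number, together with Rplp0, Rplp1, Rplp2 and Rpsa, leaving out symbols marked as pseudogenes and the ribosomal S6 kinases. The rule found 77 genes among the 10560 of the untreated table, 46 of the large and 31 of the small subunit. It found 84 among the 13458 of the table of immune checkpoint blockade (ICB), 48 of the large and 36 of the small subunit. All 77 were in both tables, and 7 were in the ICB table only (Rpl22l1, Rpl23a, Rps12l1, Rps12l2, Rps27, Rps27l and Rps4y2). The rule itself uses symbols and no measured value, but these genes were chosen with earlier results of these data known.

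The study sorted CD8+ T cells from tumors of AT3-OVA, a mouse mammary carcinoma line that carries ovalbumin, and from spleens, and profiled 51 libraries by 3' RNA sequencing. Tumor cells were sorted by CD103 and CD69, surface proteins of tissue-resident memory T cells, into CD103+CD69+ (DP), CD103-CD69+ (SP) and CD103-CD69- (DN) cells. Untreated tumors were taken at week 1 (3 DP, 3 SP and 2 DN libraries), week 2 (4, 3 and 3), week 4 (3, 2 and 3) and week 6 (3, 3 and 2). Control spleens gave naive, central memory (CM) and effector memory (EM) CD8+ T cells, with 3 libraries of each. Tumors under ICB were taken at day 40, with 3 DP, 3 SP and 2 DN libraries, and had no untreated group in their own table, so the effect of the blockade itself was not tested. The labels give AT3-OVA as the cell line of every library, spleens included, and do not name the mouse strain, the age of the mice, the antibodies of the blockade, or whether a replicate is 1 animal or a pool. The p-values therefore measure the spread between these samples, which may be technical.

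Ribosomal proteins assemble with ribosomal RNA in the nucleolus into a large subunit, which forms peptide bonds, and a small subunit, which reads the messenger. Most mammalian ribosomal protein messengers begin with a short pyrimidine stretch, the 5' terminal oligopyrimidine (TOP) motif, through which mTORC1 signaling and the RNA-binding protein Larp1 control their translation and stability. T cells make ribosomes when they leave quiescence, and naive T cells hold a large pool of TOP messengers that are translated on activation.

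Sequences around the start of 60 of the 84 genes were found among RefSeq promoters (GRCm38.p6). A pyrimidine tract, defined as a C followed by at least 7 more C or T on the sense strand between 20 bases before and 40 bases after the annotated start, was present in 39 of the 60, or 65%, against 19.6% of all 27025 promoter genes and 20.3% of the 9282 of them measured in these tables. The core letters of an Ets-factor motif, CCGGAAG, were present on either strand in 25 of the 60 promoters of 300 bases (41.7%, against 9.93% of all and 20.3% of the measured genes). The E-box letters CACGTG were in 6 (10%, against 8.09% of all and 11.7% of the measured genes) and the letters TATAAA in 7 (11.7%, against 15.7% and 8.73%), so for both the share lay between those of the 2 backgrounds. These counts are matches of letters and say nothing of binding. The following 8 stretches of 30 bases, 5′ to 3′ on the sense strand, show the tract, in capitals, in genes that the comparisons turn on.
Rpl15 (chr14:18270968-18270997, minus strand): gagaaagCCTTCTTCCTTTCCTCTggcggc
Rps26 (chr10:128626484-128626513, minus strand): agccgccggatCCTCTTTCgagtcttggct
Rps7 (chr12:28635911-28635940, minus strand): ctgtccccaCCTCTTTTCTTCCgccacccg
Rpl35 (chr2:39005115-39005144, minus strand): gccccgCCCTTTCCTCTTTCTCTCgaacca
Rpl27a (chr7:109519186-109519215, plus strand): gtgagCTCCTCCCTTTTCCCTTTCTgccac
Rpl5 (chr5:107900497-107900526, plus strand): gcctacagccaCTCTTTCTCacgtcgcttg
Rplp2 (chr7:141447636-141447665, plus strand): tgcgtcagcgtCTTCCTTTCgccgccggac
Rps6 (chr4:86857349-86857378, minus strand): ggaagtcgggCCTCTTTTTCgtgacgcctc

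The length of the tract differed among these genes, from 8 bases in Rps26 to 20 in Rpl27a. Its first base, counted from the annotated start, lay between -20 in Rpl5 and 23 in Rps7. The tract of Rpl5, of 9 bases, thus lay wholly before that start, and a tract in this window need not be a TOP motif. In the GENCODE annotation of GRCm38, 82 of the 84 symbols had a gene model. The models lay on 19 chromosomes, with 15 on chromosome 7, and 80 were protein coding. Rps12l1 and Rps3a3 were annotated as processed pseudogenes. Reads of such near-identical copies and of their parents cannot always be told apart, so the values of both are uncertain.

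The deposited values are taken as log2, which is an inference, and a difference of 1 then means a doubling. In the untreated table the values were not abundances. The mean values of the ribosomal protein genes had a median of 1.24 where the median gene had 8.30, and 70 of the 77 lay in the lowest 25% of all genes, although these messengers are among the most abundant of a T cell. In the ICB table the median was 10.8 against 8.36 for all genes. Differences within a gene are therefore given, and levels are not compared between genes or tables. The spread among libraries of a group was smaller in these genes than over all genes. The median residual SD was 0.20 in the untreated table, against 0.27 for all genes, and 0.10 against 0.17 in the ICB table. These SDs were scaled up for the tests and lie above the observed spread. Itgae, which encodes CD103, followed the sort under ICB, with a mean of 14.50 in DP, 12.15 in SP and 10.03 in DN. In untreated tumors the mean was higher in DP than in DN at every week, although at week 1 the highest DN library (14.00) lay above the lowest DP library (13.70). Cd69 under ICB had means of 12.21 in DP, 11.91 in SP and 11.94 in DN, and the SP and DN libraries, whose cells were sorted apart by this protein, overlapped. In untreated tumors at week 1 its means were -0.31 in DP, 0.31 in SP and -0.55 in DN. The lowest DP library of that week (-1.28) lay below both DN libraries. At week 2 the lowest DP library (0.07) lay below the highest DN library (0.44).

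For each library the median over the ribosomal protein genes of the value minus that gene's mean in the table gives their joint level. Spleen naive cells had the highest mean, 0.38 ± 0.03 (SD, n = 3), followed by CM cells, 0.30 ± 0.07 (n = 3), whose libraries overlapped those of naive cells. Among tumor groups the highest was DN at week 6, 0.13 ± 0.05 (n = 2). The lowest groups were DN at week 1, -0.28 ± 0.15 (n = 2), DP at week 2, -0.20 ± 0.05 (n = 4), and spleen EM, -0.18 ± 0.09 (n = 3). The other 9 groups lay between -0.14 and 0.08, and the libraries of groups next to each other in that order overlapped. Under ICB the 2 DN libraries (0.29 ± 0.01, n = 2) lay above all SP (-0.07 ± 0.03, n = 3) and DP libraries (-0.12 ± 0.02, n = 3). In bulk RNA of sorted cells, fewer cells of a type and less RNA per cell cannot be told apart, and a value set relative to the other genes of a library cannot show the total amount of ribosomal messengers.

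**Figure D1:**
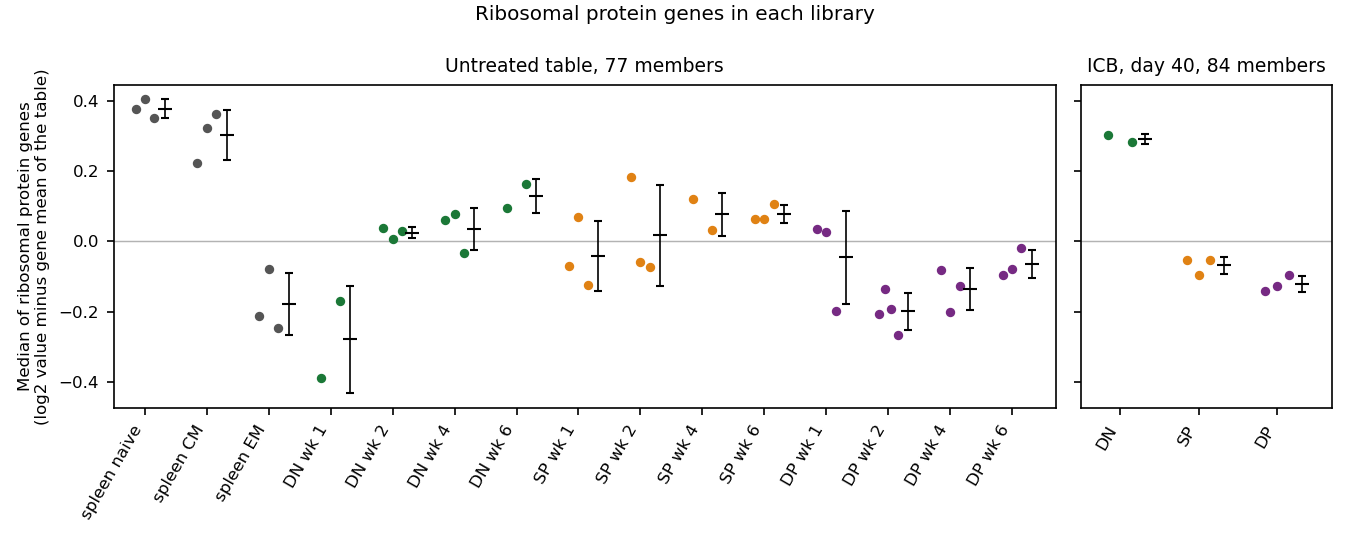
Each point is 1 library: the median over the ribosomal protein genes of the log2 value minus the gene's mean in its table (77 genes in the untreated table, 84 in the ICB table); bars give the group mean ± SD. The naive and CM spleen libraries stand at 0.22 or above, every EM library below 0, and under ICB both DN libraries stand above 0.28 while every SP and DP library is below 0.

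Effector memory cells of the spleen had lower ribosomal protein values than naive cells. At an adjusted p below 0.05 (limma, Benjamini-Hochberg over all genes), 51 of the 77 were lower and 0 higher, where 24.6% of all genes passed in either direction and 12% passed as lower. The median difference of the 77 was -0.61, against -0.02 over all genes, and 75 had a difference below 0. Both subunits took part, with 28 of 46 large-subunit and 23 of 31 small-subunit genes lower. In 69 of the 77 every EM library lay below every naive library, which held for 27.3% of all genes. EM cells also had lower values than CM cells in a comparison added after the values were seen: 38 were lower and 0 higher, where 15.4% of all genes passed in either direction and 7.19% as lower, with a median difference of -0.54. Without single EM or CM libraries the second count was as low as 24 (CM replicate 3 or EM replicate 3) or 25 (CM replicate 2 or EM replicate 1). The 2 comparisons share the EM libraries.

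The gene with the largest difference was Rpl15, a protein of the large subunit. Its values were -1.21, -1.13 and -1.15 in naive cells, -1.32, -1.10 and -0.99 in CM cells, and -2.45, -1.95 and -2.57 in EM cells. The EM libraries did not overlap either of the other groups, which overlapped each other. EM was lower than naive by a log2 difference of -1.16 (SE 0.24, adjusted p = 0.00122) and lower than CM by -1.19 (adjusted p = 0.00252). Rps26, a small-subunit protein that contacts the messenger near its exit from the ribosome, had values of 0.07, 0.15 and -0.02 in naive, -0.43, -0.15 and 0.04 in CM and -1.07, -0.76 and -1.20 in EM cells. All EM libraries were lowest, and the difference from naive was -1.08 (SE 0.15, adjusted p = 1.54e-05). Rpl10a, reported to be absent from part of the ribosomes of a cell, had values of 0.31, 0.19 and 0.39 in naive, 0.38, 0.40 and 0.40 in CM and -0.81, -0.44 and -0.95 in EM cells. Its difference was -1.03 from naive (adjusted p = 0.00068) and -1.13 from CM (adjusted p = 0.000927).

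Several genes are described for their roles. The stalk proteins, which recruit elongation factors to the large subunit, were divided. The difference was -0.76 for Rplp1 (adjusted p = 0.000711) and -0.44 for Rplp0 (adjusted p = 0.0393), while Rplp2 had -0.28 and did not pass (adjusted p = 0.266). Rplp1 had 3.06, 3.02 and 3.07 in naive and 2.27, 2.34 and 2.26 in EM cells, with no overlap. Rps6, the substrate of S6 kinase, had -4.92, -4.82 and -4.88 in naive cells and -5.65, -5.35 and -5.80 in EM cells. Its difference was -0.73 (adjusted p = 0.0121), again without overlap. Rpl11, which with Rpl5 and 5S ribosomal RNA binds Mdm2, had a difference of -0.66 that passed (adjusted p = 0.0352), and Rpl5 had -0.55 and did not pass (adjusted p = 0.0531). Rpl5 did pass against CM cells, at -0.86 (adjusted p = 0.00682).

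Further named members that were lower in EM than in naive cells were Rps3a1 (-0.71), Rpl3 (-0.64), a protein near the peptidyl transferase center, and Rpsa (-0.64), also known as a laminin receptor precursor. Others were Rpl38 (-0.52), needed for translation of some Hox messengers, Rpl22 (-0.49), required for the development of alpha-beta T cells, and Rps4x (-0.47). Rps19, the gene most often mutated in Diamond-Blackfan anemia, had a difference of -0.44. It had values of 3.33, 3.37 and 3.35 in naive cells and 2.91, 2.92 and 2.91 in EM cells, so the libraries of each group lay close together. Of the 26 genes that did not pass, Rpl29 had the largest positive difference, 0.42 (adjusted p = 0.0657), with values of 0.26, 0.63 and 0.19 in naive and 0.85, 0.50 and 1.00 in EM cells, which overlapped. Rpl29 and Rps12 were the 2 genes with a difference above 0, and Rps12 had 0.03 (adjusted p = 0.955). These 2 and the other unpassed genes outside the naming rule were chosen after their values were seen.

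CM and naive cells differed in few of these genes. Rpl10 and Rpl27a were higher and Rps7 was lower in CM cells, so 3 of the 77 passed where 18.8% of all genes did, and the median difference was -0.08. Every CM library lay below every naive library in 23 genes, against 29.3% of all genes. Rpl10, a protein added late to the large subunit in the cytoplasm, had -2.27, -2.44 and -2.14 in naive, -1.48, -1.57 and -1.61 in CM and -2.77, -2.64 and -2.83 in EM cells. The 3 groups did not overlap, with CM highest. The CM difference from naive was 0.73 (SE 0.23, adjusted p = 0.0289) and the EM difference from CM was -1.19 (adjusted p = 0.00148). Rps7 showed another order: 2.41, 2.09 and 2.32 in naive, 1.54, 1.52 and 1.41 in CM and 1.21, 1.25 and 1.20 in EM cells. CM was lower than naive by -0.79 (SE 0.22, adjusted p = 0.0143) and EM by -1.05 (adjusted p = 0.00115). Under quantile normalization the CM comparison had 6 lower and 0 higher calls in place of 1 and 2. Without any 1 of the CM libraries 1 call was left, and without naive replicate 1 there was 0.

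**Figure D2:**
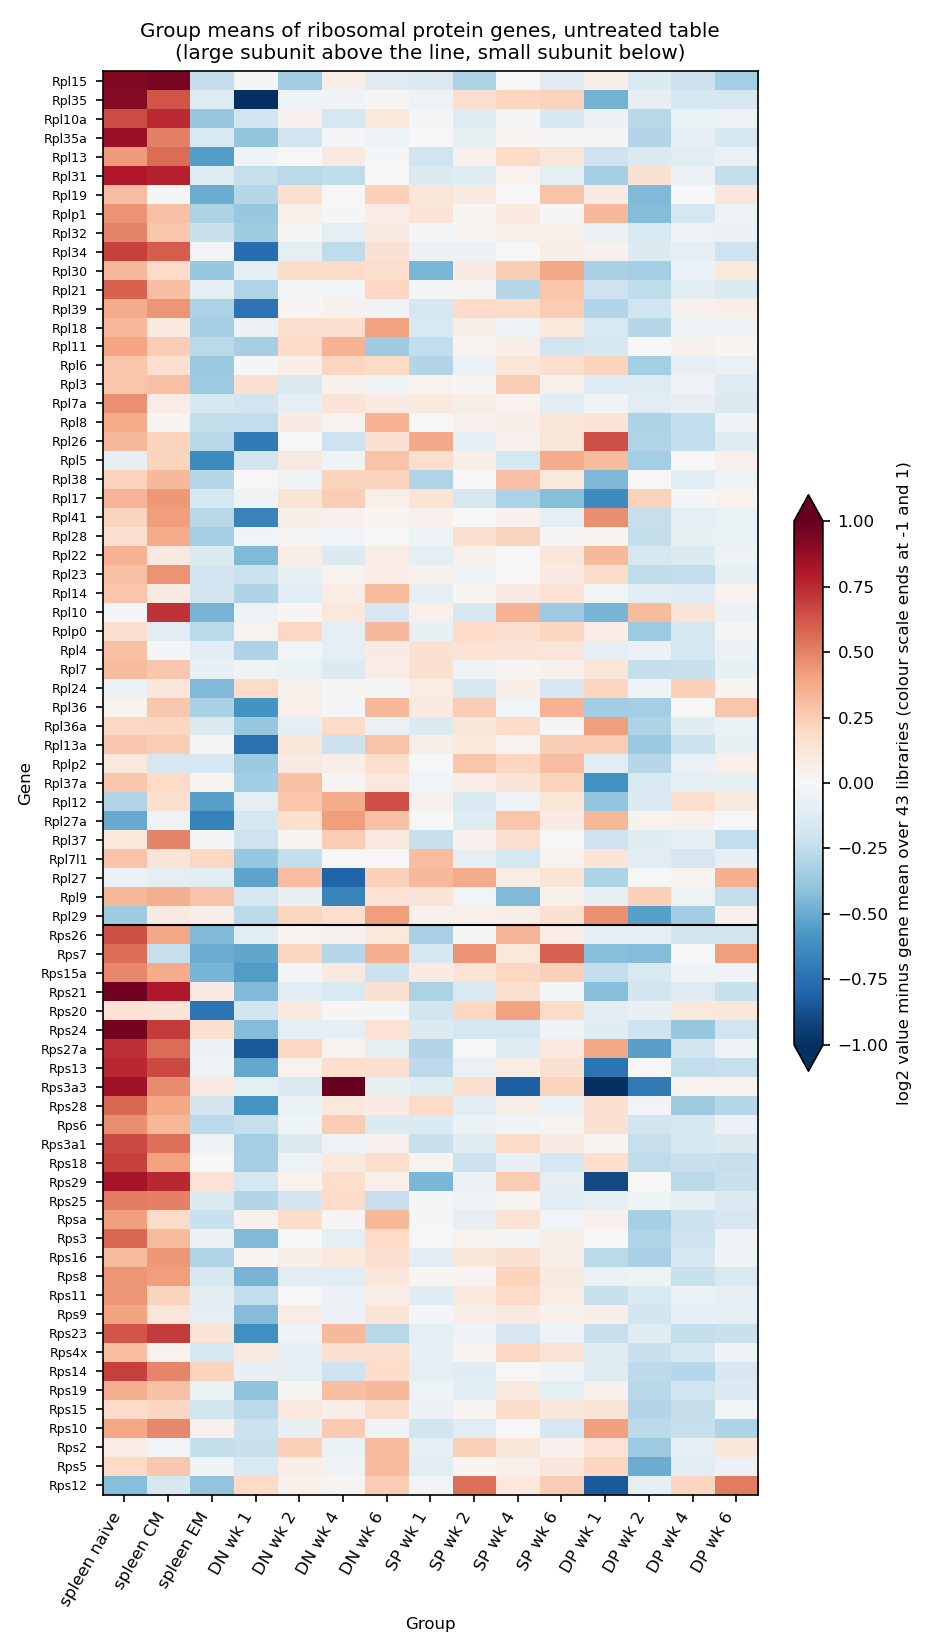
Group means of ribosomal protein genes (rows) in the 15 untreated groups (columns), as log2 value minus the gene's mean over 43 libraries; red is higher and blue lower, and within each subunit genes are ordered by the difference between EM and naive spleen cells. The naive and CM columns are red in most rows, the EM column is mostly blue, and strong single departures among tumor groups stand in the columns of DN and DP at week 1 and, for Rps3a3, DN at week 4.

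Related genes of translation were examined beside the ribosomal proteins. Of 20 other TOP messengers and elongation factors, 5 were lower and 0 higher in EM than in naive cells, with a median of -0.28. They were Tpt1 (-0.85, adjusted p = 3.1e-05), a growth-related protein with a TOP messenger, Gnb2l1 (-0.60), the Rack1 protein of the small subunit, the elongation factors Eef1b2 (-0.57) and Eef1a1 (-0.54), and the initiation factor Eif4b (-0.33). Of 45 measured ribosome biogenesis genes, 2 were higher and 1 lower, with a median of 0.01. The nucleolar proteins Ncl (0.56) and Dkc1 (0.61) were higher, and Nmd3 (-0.47), the export adapter of the large subunit, was lower. Of 17 measured growth-signaling genes, 2 were higher, namely Rptor (0.41) and Tsc1 (0.47). A further 3 were lower, Mtor (-0.42) and the mTORC1 inhibitors Sesn1 (-0.76) and Sesn3 (-0.98). Against CM cells, 2 TOP genes (Tpt1 and Gnb2l1) were lower, and Sbds (0.70) and Tsc1 (0.51) were higher in EM cells.

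Proliferation genes moved with this result: 8 of 9 were higher in EM than in naive cells, with a median of 1.89. The list median per library ranged from -2.20 to -0.99 in naive, -0.63 to -0.58 in CM and -0.21 to 0.31 in EM cells. Of the 5 measured tumor epithelium markers, 2 were lower in EM than in naive cells, of 9 myeloid markers 1 was higher and 3 were lower, and of 14 T-cell identity genes 2 were higher and 3 lower. Cd4 was also higher in EM than in naive cells (2.29), Foxp3 did not pass (0.27), and the endothelial Pecam1 was lower (-1.09). Against CM cells, 4 of the 9 proliferation genes were higher in EM cells. Of the myeloid markers, C1qb (-4.67), C1qc (-2.40), Ctss (-1.40) and Apoe (-1.17) were lower than in CM cells and Itgam (1.43) was higher. In the same comparison 2 of the 5 epithelium markers were lower, and 1 of 3 B-cell and 1 of 2 CD4 and regulatory T-cell markers were higher. The part of these differences in the ribosomal protein result was not tested. Among the 57 genes of the untreated table with a RefSeq promoter, 24 of 36 with a pyrimidine tract and 14 of 21 without one were lower in EM than in naive cells, and their medians were -0.63 and -0.49.

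Tumor cells were compared with spleen EM cells over the 4 weeks. In SP cells 20 genes were higher and 1 lower, where 29.4% of all genes passed in either direction and 15.9% as higher, with a median difference of 0.22. In DN cells 14 were higher and 2 lower, where 20.6% and 10.2% of all genes passed in the same way, with a median of 0.14. In DP cells 7 were higher and 4 lower, where 29.7% and 13.8% passed, with a median of 0.08. Counted in either direction, the 21 calls in SP and 16 in DN cells were near the share of all genes and the 11 in DP cells were below it. The 3 comparisons share the EM libraries, and without EM replicate 1 or 3 the counts were 9 and 8 in SP, 5 and 3 in DN and 4 and 4 in DP cells. Under quantile normalization the DN calls were 6 higher and 5 lower, and the DP calls were 11 higher and 1 lower (13 and 3 under median rescaling).

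Rpl27a, a large-subunit protein, was called higher in 4 of the design's comparisons, the most of any member. Its EM values were 0.87, 0.86 and 0.81, and those of naive cells 0.77, 1.23 and 1.04. Tumor libraries ranged from 1.18 to 2.12, all above every EM library, with the lowest in DN at week 1 and the highest in DP at week 1. The difference from EM was 0.78 in DP (SE 0.12, adjusted p = 8.42e-05) and 0.85 in DN (SE 0.13, adjusted p = 0.000129). Rps20 was higher than in EM cells in all 3 subsets, by 0.74 in DP, 0.88 in SP and 0.71 in DN cells. Rpl5 was also higher, by 0.65, 0.75 and 0.67. Rps7 was higher in SP cells (0.74, adjusted p = 0.0033), and Rpl12, a protein at the base of the stalk, in DN cells (0.84, adjusted p = 0.00137).

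A few members were lower in tumor than in EM cells. Rps14, the gene lost in the 5q- syndrome, had 1.28, 1.22 and 1.30 in EM cells. It was lower in DP (-0.43, adjusted p = 0.00373) and in SP cells (-0.28, adjusted p = 0.0475). Its naive values of 1.77, 1.69 and 1.73 were its highest in the untreated table. Rps29 (-0.50) and Rps24 (-0.38) were lower in DP cells, and Rpl9 (-0.47) in DN cells. Rpl7l1, a relative of Rpl7, was lower in DP (-0.26) and DN cells (-0.36). Rps14 and Rps29 were each called lower in 3 comparisons, the most of any member. Of the 45 ribosome biogenesis genes, 1 was higher and 11 were lower in DP than in EM cells, Myc (-0.64) among the lower. In SP cells 3 were higher and 5 lower, and in DN cells 3 and 6. Of the 20 TOP genes 3, 6 and 2 were higher in DP, SP and DN cells and 0 lower. Every measured tumor epithelium marker was called higher, and every measured B-cell marker lower, than in EM cells in all 3 subsets. Krt8 differed by 4.96 in DP, 5.18 in SP and 4.95 in DN cells, and Ighm by -1.84, -1.95 and -2.35. Myeloid and T-cell identity genes were called in both directions. The part of these markers in the ribosomal protein differences from EM cells was not tested.

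**Figure D3:**
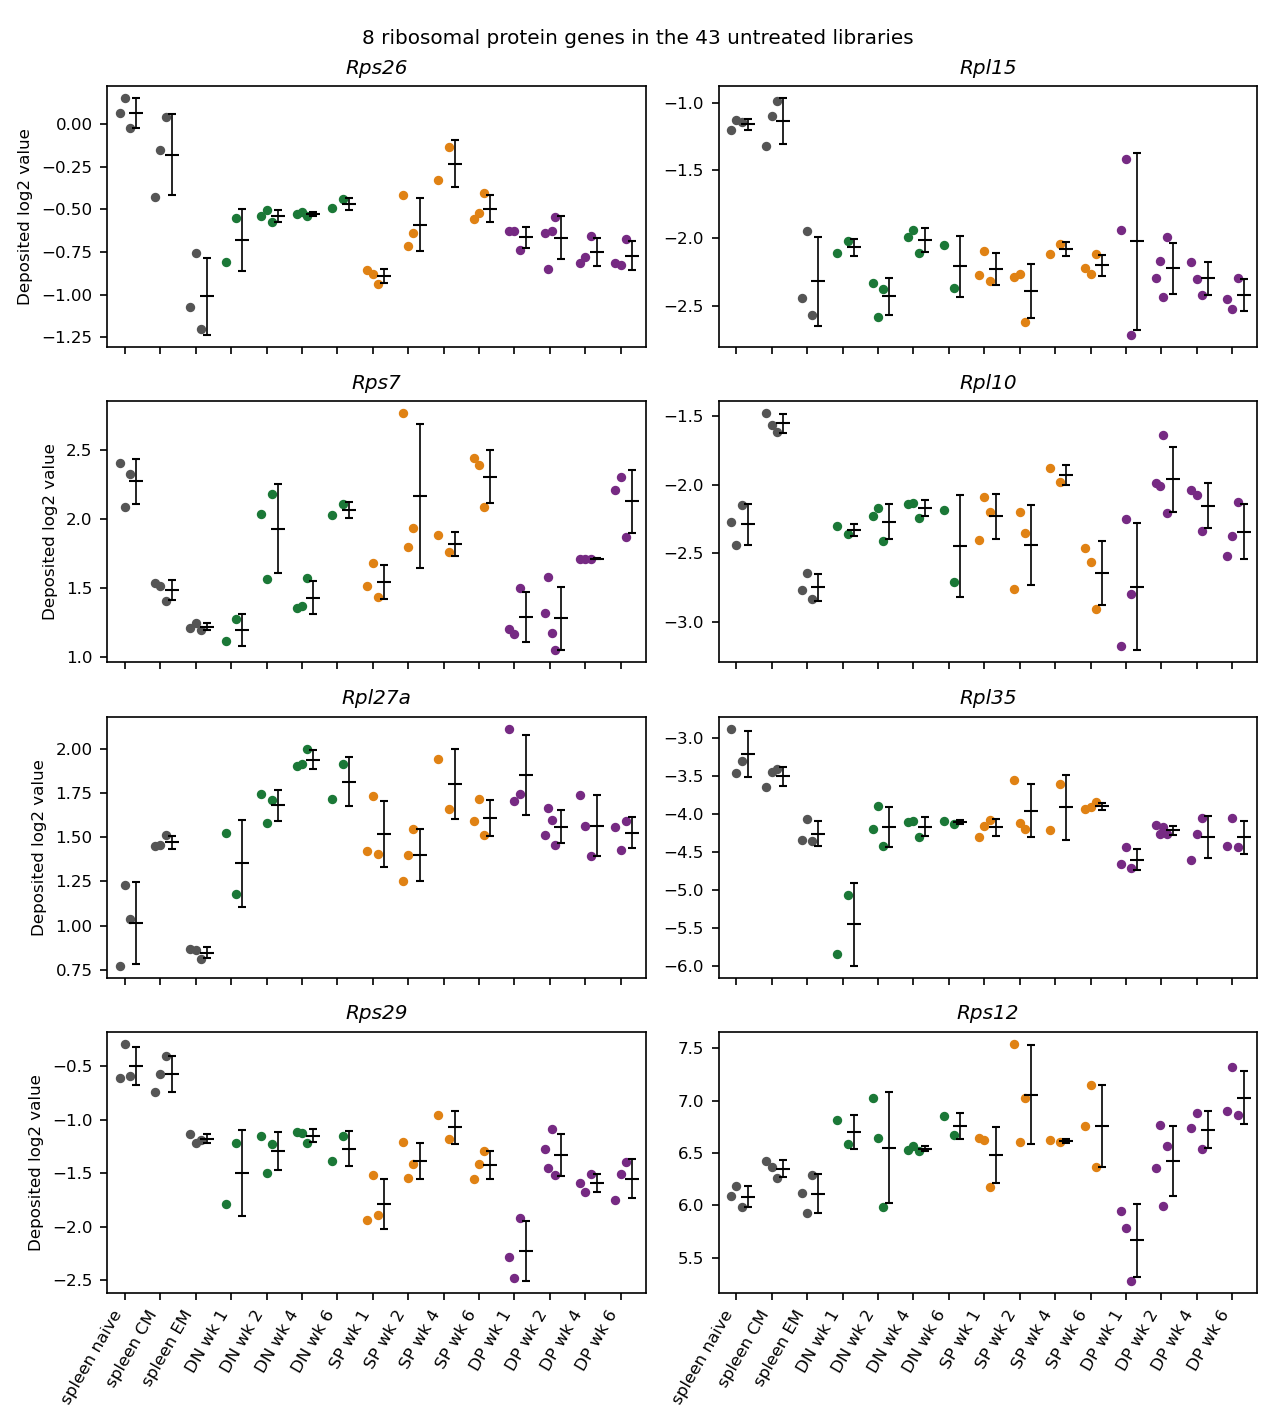
Deposited log2 values of 8 ribosomal protein genes in the 43 untreated libraries, 1 panel a gene; points are libraries and bars the group mean ± SD. Rps26 and Rpl15 are lower in every EM library than in naive and CM cells, Rpl10 is highest in CM cells, Rpl27a is higher in every tumor library than in EM cells, Rpl35 is lowest in the 2 DN libraries of week 1, and Rps12 has its lowest group mean in DP cells of week 1.

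Under ICB, DP and SP cells had lower ribosomal protein values than DN cells. In DP against DN 32 of the 84 were lower and 0 higher, where 7.49% of all genes passed in either direction and 3.02% as lower. The median difference was -0.41, against 0.01 over all genes. In SP against DN 12 were lower and 0 higher, where 3.83% and 1.36% of all genes passed, with a median of -0.35 against 0.04. Every DP library lay below both DN libraries in 78 of the 84 genes, which held for 35.6% of all genes, and every SP library did in 72, against 26.7%. Both subunits took part, with 16 large-subunit and 16 small-subunit genes lower in DP and 5 and 7 in SP cells. The 2 comparisons share the DN libraries, and these are only 2 libraries. Without either DN library the counts were 4 and 0, without single DP libraries the first was between 20 and 49, without single SP libraries the second was between 21 and 29, and without limma's trend and robust options both were 0, while the medians without single libraries stayed between -0.43 and -0.35.

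Rpl5 had the smallest p of the named genes together with Rplp0. Its values were 11.25 and 11.24 in DN, 10.53, 10.53 and 10.55 in DP and 10.68, 10.66 and 10.66 in SP cells. The 3 groups did not overlap, and DP was lowest. The difference from DN was -0.71 in DP (SE 0.07, adjusted p = 0.0135) and -0.57 in SP cells (adjusted p = 0.0269). Rplp0 had 12.79 and 12.77 in DN, 12.12, 12.13 and 12.17 in DP and 12.25, 12.19 and 12.21 in SP cells. Its differences were -0.64 (adjusted p = 0.0135) and -0.56 (adjusted p = 0.0236). All 3 stalk genes were lower in DP cells, with Rplp1 at -0.61 (adjusted p = 0.0283) and Rplp2 at -0.48 (adjusted p = 0.0378).

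Rpl12 had 8.65 and 8.63 in DN, 7.93, 7.93 and 7.89 in DP and 7.79, 7.72 and 7.89 in SP cells. Both lay below DN, and the highest SP library lay just below the lowest DP library. Its differences were -0.72 (SE 0.14, adjusted p = 0.0478) and -0.83 (adjusted p = 0.048). Rps19 had 11.01 in both DN libraries, 10.47 in all 3 DP libraries and 10.43, 10.45 and 10.41 in SP cells. Its differences were -0.54 (adjusted p = 0.024) and -0.58 (adjusted p = 0.0282). Rps20 was lower in SP cells by -0.61 (adjusted p = 0.0275). Rps3a1 was lower in both subsets, by -0.57 and -0.49, and Rpl10a (-0.63), Rps4x (-0.47), Rpl38 (-0.45) and Rpl7 (-0.34) were lower in DP cells.

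Some members had smaller differences or did not pass. Rpl13a, which can leave the ribosome to silence inflammatory messengers, had the narrowest range of group means of the table. Its values were 14.38 and 14.39 in DN, 14.34, 14.34 and 14.38 in DP and 14.36, 14.40 and 14.29 in SP cells. The DP libraries lay just below both DN libraries, and the SP libraries overlapped both groups. Its DP difference was -0.04 (SE 0.07, adjusted p = 0.782). Rps6 (-0.17, adjusted p = 0.521), Rpl11 (-0.55, adjusted p = 0.0742) and Rpsa (-0.39, adjusted p = 0.0863) did not pass in DP cells.

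Pairs of related genes could be compared in this table. Rps27 had 9.85 and 9.90 in DN, 9.41, 9.39 and 9.33 in DP and 9.56, 9.70 and 9.59 in SP cells, with a DP difference of -0.50 that did not pass (adjusted p = 0.0563). Its relative Rps27l, a target of p53, had 4.22 and 4.29 in DN, 4.71, 4.64 and 4.42 in DP and 4.84, 5.02 and 5.12 in SP cells. Rps27l was thus the 1 of these with DN lowest, but neither difference passed: 0.33 in DP (SE 0.29, adjusted p = 0.514) and 0.73 in SP cells (SE 0.29, adjusted p = 0.229). Rpl22 had a DP difference of -0.29 (adjusted p = 0.0984) and its relative Rpl22l1 one of -0.54 (adjusted p = 0.184), and all DP libraries of both lay below DN. Rpl7 passed, as above, while Rpl7l1 had -0.05 (adjusted p = 0.888). Whether the members of a pair differ in their response was not tested. Rpl3l, Rpl39l and Rps4l were not analysed here. Rps4y2 had the widest range of group means, 4.39, at a mean value of -6.22, and passed in no comparison.

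**Figure D4:**
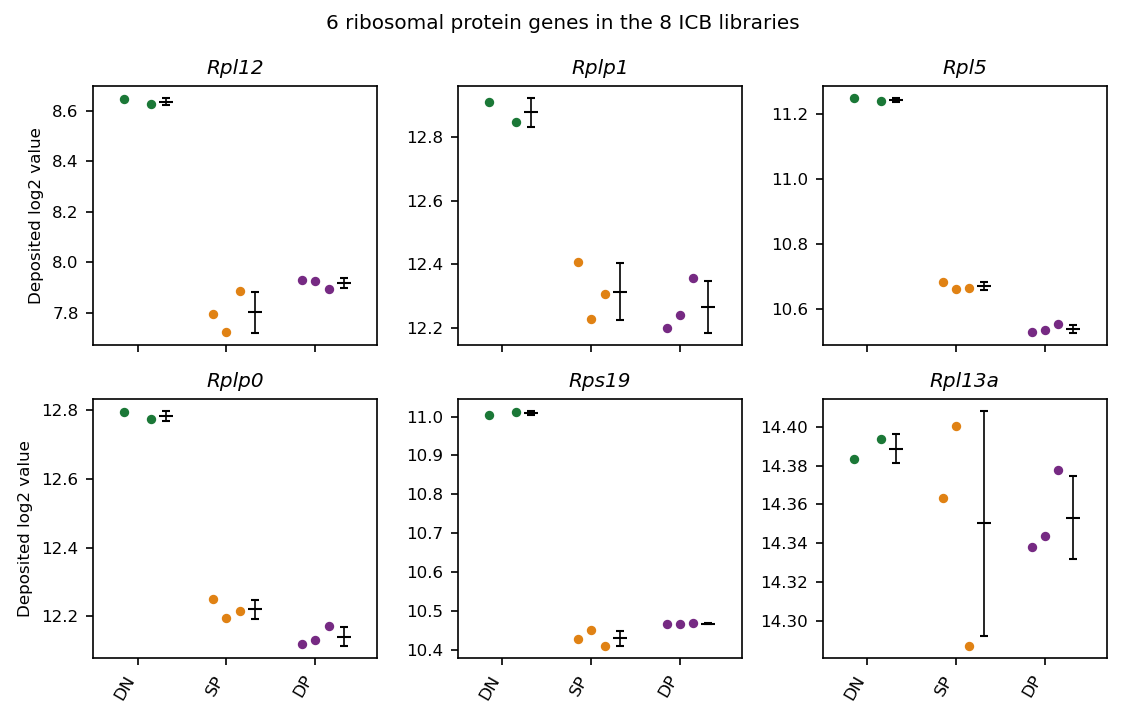
Deposited log2 values of 6 ribosomal protein genes in the 8 libraries under ICB at day 40, by sorted subset; points are libraries and bars the mean ± SD. In 5 panels the 2 DN libraries lie above all DP and SP libraries, and in the panel of Rpl13a the SP libraries overlap both other groups.

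DP and SP cells under ICB were also compared with each other. The limma test called 0 of the 84 genes, where 0.0372% of all genes passed. An unadjusted p below 0.05 was found in 5 of the 84, given here without the share of all genes. With degrees of freedom that ignore the directions lost from the table, 21 were called. The median difference was -0.07, against -0.02 over all genes, and 26 genes had every DP library below every SP library, against 21.5% of all genes.

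Other genes of the pathway moved in part with these differences. Of 20 TOP genes 5 were lower in DP than in DN cells, namely Eef1b2 (-0.65), Tpt1 (-0.52), Naca (-0.44), Gnb2l1 (-0.39) and Nap1l1 (-0.35), and Tpt1 and Gnb2l1 were lower in SP cells. Of 46 ribosome biogenesis genes 2 were lower in DP cells, Myc (-1.03, adjusted p = 0.0478), a transcription factor that drives ribosome production, and Taf1d (-0.64), and 0 of 46 passed in SP cells. The medians of that list were -0.25 and -0.24. Of 18 growth-signaling genes 1 passed, Rps6ka1, higher by 0.51 in DP and 0.55 in SP cells. Proliferation genes did not pass in either comparison (0 of 9), with medians of -0.02 and 0.08. Myeloid markers moved with the DP result: 9 of 11 were higher in DP than in DN cells, and their median per library ranged from -1.19 to -1.17 in DN, 0.82 to 0.98 in DP and -0.40 to 0.13 in SP cells. In SP against DN 0 of the 11 passed. Other markers moved too. Foxp3, of regulatory T cells, was higher in DP cells (3.34), while Cd4, of the same list, had -1.44 and did not pass (limma, adjusted p = 0.156). The endothelial Cdh5 was higher in DP (3.27) and SP cells (1.85). Pecam1, of the same list as Cdh5, went the other way without passing. It had -0.90 in DP (adjusted p = 0.0517) and -0.79 in SP cells (adjusted p = 0.0888). Cdh1, of the epithelium list, was higher in DP (1.43) and SP cells (0.77), and no other measured marker of that list passed in either comparison. The median of the 8 measured epithelium markers ranged from -1.04 to -0.89 in DN, -0.08 to 0.13 in DP and 0.33 to 0.83 in SP libraries. Of 14 T-cell identity genes 1 was higher and 1 lower in DP, and 3 were higher in SP cells. The part of these markers in the DP and SP differences was not tested. Of the 60 genes with a RefSeq promoter, 12 of 39 with a pyrimidine tract and 9 of 21 without were lower in DP than in DN cells, with medians of -0.45 and -0.39.

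The subsets of untreated tumors were compared with the 4 weeks weighted equally. Over these weeks, 8 genes were lower and 0 higher in DP than in DN cells, where 19.5% of all genes passed in either direction and 10.7% as lower, so the count was near that of all genes. The median was -0.07, against -0.01. The lower genes included Rps29 and Rpl12 (each -0.37), Rpsa (-0.31, adjusted p = 0.00823), Rplp0 (-0.24, adjusted p = 0.0406) and Rps4x (-0.22, adjusted p = 0.0317). Without week 1, 20 were lower and 0 higher, with a median of -0.19. The share of all genes called was not computed without week 1, so this count has no background beside it. Under quantile normalization the calls turned to 6 higher and 1 lower. Without the first and the second DN library of week 1 the count was 15 and 4, without the second of week 6 it was 5, and without the third DP library of week 1 it was 13. SP against DN had 7 higher and 0 lower, where 19.4% and, as higher, 11% of all genes passed, with Rpl35 (0.49), Rpl27 (0.42) and Rps15a (0.34) the largest, and 4 and 11 called without the first and the second DN library of week 1. Without week 1, 1 was higher and 2 were lower, again with no share of all genes computed. DP against SP had 1 lower, Rpl4 (-0.23, adjusted p = 0.0467), where 3.48% of all genes passed. Without single libraries 0 to 4 genes were called, and 69 of the 77 differences were below 0, against 59.8% over all genes. Of 20 TOP genes, 3 were higher and 1 lower in DP than in DN cells, 7 higher in SP than in DN, and 2 lower in DP than in SP. The biogenesis list had 2 higher and 2 lower, 4 higher and 2 lower, and 0 in the same order, and the growth-signaling list had 1 and 0, 1 and 1, and 0. Most T-cell identity genes were called lower in DP than in SP cells, Cd8a (-0.54) and Cd3e (-0.48) among them, and none higher. Markers called higher in DP than in DN cells included Lyz2 (1.17), Krt19 (1.47) and Foxp3 (1.82), and Pecam1 (-0.55) was among those lower. These lists did not move as a whole. Among their members that did not pass were Krt8 (0.01), Krt18 (0.11), Cd68 (0.27), Itgam (0.10) and Cd4 (-0.07). The part of these markers in the ribosomal protein differences between subsets was not tested. The library numbers of the sample descriptions ran from 46 to 75 in all DN libraries and from 5 to 42 in 21 of the 24 DP and SP libraries and all spleens. With that division as a term, 0 genes were called in DP or SP against DN, and subset and library number largely cannot be told apart.

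**Figure D5:**
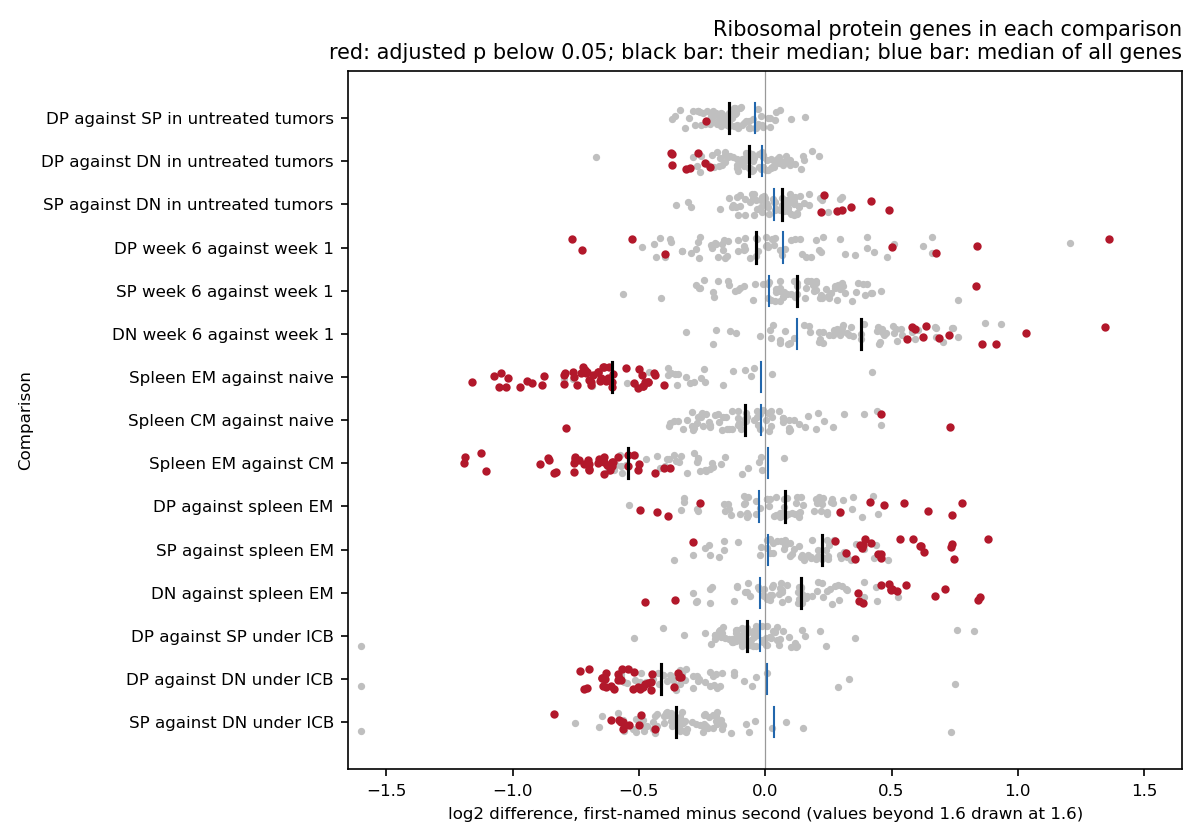
Each point is the log2 difference of 1 ribosomal protein gene in the comparison named on the left, first-named minus second (1 gene in each ICB comparison beyond -1.6 is drawn there); red points passed an adjusted p of 0.05, black bars are the median of these genes and blue bars that of all genes. The medians of EM against naive (-0.61), EM against CM (-0.54) and, under ICB, DP and SP against DN (-0.41 and -0.35) stand farthest below the medians of all genes.

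Between DP and DN cells, week 1 differed from the later weeks. At week 1, 18 genes were higher and 2 lower in DP than in DN cells, where 22.7% of all genes passed in either direction and 11.8% as higher, with a median of 0.22. At weeks 2, 4 and 6 the medians were -0.18, -0.14 and -0.21, and 0, 2 and 0 were higher and 2, 4 and 0 lower, where 0.814%, 21.9% and 3.2% of all genes passed. The difference between week 1 and the mean of weeks 2 to 6 passed in 28 genes, 27 of them higher at week 1, where 25.8% of all genes passed in either direction and 14.3% as higher. The same difference passed in 6 genes for SP against DN (6.53% of all genes) and in 8 for DP against SP (14.7%). In SP against DN cells 9 were higher at week 1, where 7.26% of all genes passed, 0 passed at weeks 2 and 6 (0.464% and 3.02%), and 2 were higher and 1 lower at week 4 (13.6%). In DP against SP cells 3 were higher and 2 lower at week 1, where 17.4% of all genes passed, and 0 passed at weeks 2, 4 and 6 (0%, 0.142% and 0%), with medians of -0.01, -0.20, -0.22 and -0.16 in order of the weeks. At week 2 every DP library lay below every SP library in 20 genes, against 7.08% of all genes, although 0 of the 77 and 0 of all genes passed (limma, adjusted p). An unadjusted p below 0.05 (limma) was found in 22 of the 77, against 677 of all 10560 genes. Rpl29 and Rps2 were the 2 genes lower in DP than in DN cells at week 2 (-0.76 and -0.60), named after their values were seen. Rpl29 had 0.16, 0.20, -0.07 and 0.39 in DP and 0.94, 0.95 and 0.90 in DN cells at that week, with no overlap. Every DP library of week 2 lay below every DN library in 26 genes, against 13.9% of all genes.

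Several genes had their extreme in week 1. Rpl26, which binds the messenger of p53, had 3.59, 3.38 and 2.99 in DP and 1.75 and 2.19 in DN cells at week 1, and 2.53, 2.56 and 2.57 in DP and 2.72 and 2.93 in DN cells at week 6. The groups were thus apart at both weeks, in opposite order. In DP cells Rpl26 fell by 0.76 from week 1 to week 6 (SE 0.17, adjusted p = 0.00226). Rps10 fell by 0.72 (adjusted p = 0.000536) and Rpl41, a very short protein, fell by 0.53 (adjusted p = 0.00502). Rps12 rose by 1.36 (SE 0.28, adjusted p = 0.00128), from 5.94, 5.78 and 5.28 to 6.90, 7.32 and 6.87. Rps7 rose by 0.84 and Rps29 by 0.68. In all, 4 genes were higher and 4 lower in DP cells at week 6, where 25% of all genes passed in either direction, with a median of -0.04. Every library of week 1 lay below every library of week 6 in 14 genes, against 24.7% of all genes. Without the third DP library of week 1 the count was 13. Quantile normalization gave 2 higher and 10 lower, and median rescaling 3 and 11. A comparison of week 2 with week 1, added after the values were seen, had 6 higher and 21 lower, where 34% of all genes passed. Week 6 against week 2 had 0 called (0.246%). In it 12 had an unadjusted p below 0.05 (limma), given here without the share of all genes.

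In DN cells 11 of the 77 genes rose from week 1 to week 6 and 0 fell, where 5.79% of all genes passed in either direction and 4.98% as higher. The median was 0.38, against a shift of 0.12 over all genes, and 71 of the 77 differences were above 0. Every week 1 library lay below every week 6 library in 51 genes, against 36% of all genes. Rpl35, a protein near the exit of the peptide tunnel, had -5.84 and -5.07 at week 1, -4.20, -3.89 and -4.42 at week 2, -4.10, -4.09 and -4.30 at week 4 and -4.09 and -4.13 at week 6. The 2 libraries of week 1 had the lowest values of this gene in the table, and the difference was 1.34 (SE 0.30, adjusted p = 0.0115). Rpl13a rose by 1.03 (adjusted p = 0.0111), from 2.28 and 3.08 to 3.59 and 3.83. Rpl34 rose by 0.91 (adjusted p = 0.0115) and Rps19 by 0.73 (adjusted p = 0.0282), from 2.31 and 2.86 to 3.18 and 3.44. Without the first DN replicate of week 1, 0 genes were called and the median was 0.21, and without the second, 22 and 0.51. Without the first or second DN replicate of week 6 the counts were 5 and 0. The library numbers of DN cells were 72 and 73 at week 1, 46, 53 and 57 at week 2 and 50 and 61 at week 6. Week and library number thus cannot be told apart in these changes. The same limit bears on the week 1 comparisons of DP and SP with DN cells. The division of library numbers used as a term left all DN libraries on the same side. DN at week 2 against week 1, added after the values were seen, had 5 higher and 0 lower (3.12% of all genes). Week 6 against week 2 had 0 called (0.72%). In it 2 had an unadjusted p below 0.05 (limma), given here without the share of all genes.

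SP cells changed in 1 gene from week 1 to week 6. Rpl30 rose by 0.84 (SE 0.21, adjusted p = 0.0379), where 2.72% of all genes passed, and the median of the 77 was 0.13. Without any single SP library of these weeks other than the second of week 1, 0 genes were called. The change from week 1 to week 6 was tested between subsets: it differed in 18 genes between DN and DP cells, where 18.1% of all genes passed, in 3 between DN and SP (4.66%) and in 2 between SP and DP cells (8.12%). Tumor epithelium markers moved with week 1. Their list median per library ranged from 2.15 to 3.96 in DP and 2.12 to 2.94 in SP cells of week 1, from -1.79 to -0.99 in DN cells of week 1, and from 1.74 to 1.82 in DN cells of week 6. From week 1 to week 6, 4 of the 5 measured epithelium markers were lower in DP and 4 were higher in DN cells. At week 1, 10 of 14 T-cell identity genes and 5 of 9 proliferation genes were lower in DP than in DN cells, and 4 of 5 epithelium and 4 of 9 myeloid markers were higher. The part of these markers in the ribosomal protein differences of week 1 was not tested. Of the 45 biogenesis genes, 3 were higher in DP and 2 in DN cells at week 6 and 1 was lower in SP cells. Of the 20 TOP genes, 2 were higher and 3 lower in DP, 0 changed in SP and 1 was higher in DN cells.

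Across the untreated groups Rps3a3, annotated as a pseudogene copy, had the widest range of group means, 2.34, and passed in no comparison of the design. Rpl35 followed with 2.24, from spleen naive, the highest, to DN at week 1. The narrowest range was that of Rps15, 0.50, from spleen CM to DP at week 2, and Rps4x had 0.53, from spleen naive to DP at week 2. The median range of the ribosomal protein genes was 0.91, against 1.14 over all genes. In the ICB table it was 0.45, against 0.37.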

How the data were processed

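FACS-sorted CD8+ T cells gave 51 libraries in 18 groups. Per the labels' protocols, 10 ng of RNA entered QuantSeq 3' FWD libraries, read as 75 bp single ends. Per the submitters' processing notes, HISAT2 and HTSeq were used with mm10, and no versions are given. The authors deposited normalized values, taken here as log2 because they include negative numbers; the log base is an inference, and the normalization method is not given in the sources used here. Library depth was not used here. Every value column matched 1 sample (columns of no sample: 0).

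Each table was fitted apart with limma 3.58.1 (R 4.3.3, statmod 1.5.0), group means, trend and robust options, Benjamini-Hochberg adjustment over all genes and a threshold of 0.05. Weeks were weighted equally, and no genes were filtered. The tables had lost independent directions (residual rank 18 of 28 in the untreated and 2 of 5 in the ICB table), so degrees of freedom and variances were scaled by that ratio. The fit was tested on simulated data. Same-numbered replicates mostly did not deviate together (60 of 283 pairs had a correlation over 0.1, median 0.003), so replicate numbers were not taken as pairs. Some pairs of groups had high values: 0.92 and 0.85 for DN with SP under ICB, 0.86 and 0.55 for DP with SP at week 4. Other pairs went as low as -0.99. Which libraries came from the same tumor is not known, so a pairing of sorts was not excluded. Alternatives were other degrees of freedom, rescalings, a filter, a replicate block, fewer groups, a library-number term and leaving out each library.

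The members and lists were chosen with earlier results of these data known. Genes were named by role, as the 3 largest called differences in each direction of a comparison, as called most often, or by widest and narrowest range; some genes that the rule named are counted but not reported here by name. Sequences came from RefSeq (GRCm38.p6), gene models from GENCODE.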

Additional observations from a re-analysis of the deposited data

Results flagged for a closer look

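Differences of differences between subsets or weeks were tested in 6 contrasts added after the values were seen, each with limma and adjustment over all genes, and no cause was tested. The change from week 1 to week 6 differed between DN and DP cells in 18 of the 77 genes, 17 of them with the larger increase in DN cells, where 18.1% of all genes passed, and the median difference was 0.38. It differed between DN and SP cells in 3 genes (4.66%) and between SP and DP cells in 2 (8.12%). The difference at week 1 against the mean of weeks 2 to 6 passed in 8 genes for DP against SP (14.7%), 28 for DP against DN (25.8%) and 6 for SP against DN (6.53%). The contrasts share libraries, and the counts for DN against SP, SP against DP and DP against SP were at or below the share of all genes.

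The genes named in the text that passed in the change of DN minus that of DP cells were Rpl26 (1.62, adjusted p = 0.000355), Rpl13a (1.36, adjusted p = 0.00316), Rpl41 (1.22, adjusted p = 0.000413), Rpl34 (1.17, adjusted p = 0.00404), Rps19 (0.91, adjusted p = 0.013) and Rps10 (0.90, adjusted p = 0.00583). Rps12 had the opposite sign (-1.30, adjusted p = 0.0448). Rps10 also passed for SP minus DP cells (0.74, adjusted p = 0.0208), and Rpl35 for SP against DN at week 1 minus the later weeks (1.05, adjusted p = 0.0485).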

How the results depend on the processing

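Counts below are of called ribosomal protein genes, and the share of all genes called was not computed for the altered settings. Leaving out single libraries gave 38 to 49 for EM against naive (51 with all) and 24 to 41 for EM against CM (38), all lower. The range was 0 to 3 for CM against naive (3), with 1 lower call when any CM library was left out. It was 4 to 49 for DP against DN under ICB (32), 0 to 29 for SP against DN under ICB (12) and 0 for DP against SP under ICB. In untreated tumors it was 0 to 4 for DP against SP, 4 to 15 for DP against DN and 4 to 11 for SP against DN. It was 6 to 13, 0 to 1 and 0 to 22 for week 6 against week 1 in DP, SP and DN cells, and 4 to 16, 8 to 25 and 3 to 18 for DP, SP and DN against EM.

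With design-based degrees of freedom the counts were 18, 22 and 16 for DP-SP, DP-DN and SP-DN in untreated tumors, 24, 6 and 33 for the week comparisons in DP, SP and DN, and 22, 40 and 30 for DP, SP and DN against EM. They were 14 for CM against naive, mostly lower, and 21, 71 and 67 for DP-SP, DP-DN and SP-DN under ICB. Quantile normalization gave 0 for DP-SP, 7 for DP-DN (mostly higher, a reversal), 19 for SP-DN, 6 for DN week 6 against week 1, 6 for CM against naive (all lower, a reversal) and 24 for SP-DN under ICB. Median rescaling gave 0 for DP-SP, 14 for DP and 5 for DN week 6 against week 1. Leaving out the 25% of genes of lowest mean value left 7 members of the untreated table, of which 0, 0 and 2 were called for DP-SP, DP-DN and SP-DN, 1, 0 and 0 for the weeks, 2 for EM and 0 for CM against naive, 0 for EM against CM, and 0, 1 and 1 (lower, a reversal) for DP, SP and DN against EM. It gave 23 for SP-DN under ICB. No trend and robust options gave 0 for DP-DN and SP-DN under ICB.

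Fits on only the groups compared gave 14, 18 and 11 for DP-SP, DP-DN and SP-DN, 4, 5 and 0 for the weeks, 14 for CM against naive (mostly lower, a reversal), 17 and 35 for DP and SP against EM, and 67 and 42 for DP-DN and SP-DN under ICB. The library-number term gave 0 for DP-DN and SP-DN, 2 for SP week 6 against week 1 and 8 for DN against EM. Without week 1 the counts were 0, 20 and 3 for DP-SP, DP-DN and SP-DN, the last mostly lower. DP-DN within library numbers from 46, weeks 2 and 6, an alternative added after seeing the data, had 0. With the replicate block the counts were 2 for DP-SP, 15, 2 and 18 for the weeks, and 50 and 32 for DP-DN and SP-DN under ICB. The replicate numbers are not known to be a pairing, and the block moved no other count by over 1.5 times. The cause of these moves was not tested, beyond fewer genes or libraries where the setting itself removes them.

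Of 1733 repeats of the 105 named gene results, 1441 kept direction and side of the threshold, 260 lost and 31 gained a call, and 1 reversed: Rpl7l1 in DP against DN under ICB ranged from -0.16 to 0.027 without single DP or DN libraries. Depth was unknown, so counting error and limits of detection could not be given, and the directions lost from the tables hide part of the spread between libraries.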
